A study of Mus musculus with 16 samples.

Results

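The comparison asks whether mouse embryonic fibroblasts mutant for Zac1, a gene now named Plagl1, altered their transcriptome during quiescence as wildtype fibroblasts did. For each cell line, the log2 level of a gene at day 12 in vitro was set against its log2 level at day 8 in the same line, and this change was compared between mutant and wildtype lines. It uses 8 of the 16 libraries of the series. The wildtype group (Zac+/+) has 2 lines, called I and L in the labels, and the mutant group (Zac+/-, KOpat in the sample titles) has 2 lines with the same letters. All lines came from C57BL/6 embryos at E13.5 and were grown in DMEM with fetal bovine serum. The cells of day 8, day 10 and day 12 are described as quiescent and those of day 2 as proliferating. Here the I lines are wildtype line 1 and mutant line 1, and the L lines are wildtype line 2 and mutant line 2. The labels give each line as a biological replicate and do not say how many embryos it came from, so p-values measure the spread between these lines and their harvests.

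Quiescence is a reversible arrest of the cell cycle, entered by cultured fibroblasts when they become confluent or lack growth factors. Quiescent fibroblasts stay metabolically active and secrete extracellular matrix. Plagl1 is an imprinted gene, transcribed mainly from the paternal allele, and its product is a transcription factor with zinc fingers. Igf1 encodes insulin-like growth factor 1, a ligand that fibroblasts secrete and that signals through the receptor tyrosine kinase Igf1r. In the extracellular space the ligand is held by a family of binding proteins, which proteases such as Pappa and Htra1 cleave to release it.

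Total counts of the 8 libraries ranged from 32031720 to 58661499. The day 12 libraries of the mutant lines were shallower than their day 8 libraries, at 54.6% and 69.8% of their depth, whereas those of the wildtype lines were at 113% and 102%. Fibroblast markers were abundant in every library: the 12 genes of the list summed to between 48480 and 68370 CPM, a count scaled to the size of its library with edgeR's TMM factors. Plagl1 was lower in the mutant lines at each of the 3 quiescent days. The sources used here do not describe the mutated allele, and these counts do not show whether its transcript is intact.

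No gene passed the test of the genotype difference. With edgeR's quasi-likelihood test and a Benjamini-Hochberg adjusted p under 0.05, 0 of 15439 tested genes were called (0%), and the smallest adjusted p was 1. At an unadjusted p under 0.05, 204 genes were found (1.32% of those tested), of which 67 had the higher change in the mutant (0.434%) and 137 the lower one (0.887%). DESeq2 and limma-voom also called 0 genes, with 218 and 247 at an unadjusted p under 0.05. A limma fit to the 4 per-line changes called 0 genes, with 508 at an unadjusted p under 0.05. With edgeR on the 8 libraries of days 8 and 12 alone, 460 of 14970 genes were under that threshold and 0 were called. A threshold of 0.05 passes about that share of genes when none differs, and each of these counts is a smaller share. The genes named below for a genotype difference are therefore given for the size and order of their changes, and none of these differences is a called change. For the 10475 genes with a mean of at least 5 CPM, the 95% interval of the difference had a median half-width of 0.45 on the log2 scale, or 1.36-fold. This interval is before adjustment over all tested genes. With 2 lines per genotype, differences larger than this could therefore also go uncalled, as that of Igf1 did at −0.68.

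Within each genotype about as many genes passed the test, and most of the calls were shared. In the wildtype lines 148 genes rose (0.959%) and 156 fell (1.01%). In the mutant lines 139 rose (0.9%) and 180 fell (1.17%). Of these, 98 genes rose in both genotypes, which is 66.2% of the wildtype list and 70.5% of the mutant list, and 117 fell in both, or 75% and 65%. No gene was called in opposite directions. The 304 genes called in the wildtype (1.97%) had the same sign in the mutant, and 318 of the 319 called in the mutant (2.07%) had the same sign in the wildtype, Malat1 being the exception. Over the 408 genes called in at least 1 genotype, the median absolute change was 0.89 in the wildtype and 0.93 in the mutant, and the median absolute difference was 0.20. The wildtype count rests on both lines: it was 1 gene without wildtype line 1 and 0 without wildtype line 2. The mutant count stayed between 151 and 283 when 1 line was left out.

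Scg2, which encodes secretogranin II, rose by 2.97 on the log2 scale in the wildtype (edgeR adjusted p = 3.05e-04) and by 2.47 in the mutant (adjusted p = 5.42e-04). Sfrp2, a secreted modulator of Wnt signalling, rose by 2.68 in the wildtype (edgeR adjusted p = 0.00118) and 2.41 in the mutant (adjusted p = 0.00168). Its wildtype change was 3.53 without wildtype line 1 and 1.83 without wildtype line 2. Egfl6, a matrix protein with epidermal growth factor repeats, rose by 2.04 and 1.71. Ism1, a secreted protein of the isthmin family, rose by 1.90 and 1.84, and Chrdl1, a secreted antagonist of bone morphogenetic proteins, by 1.03 and 1.11. Ccnb1, a mitotic cyclin, fell by 1.19 in the wildtype (edgeR adjusted p = 6.85e-04) and 1.30 in the mutant (adjusted p = 4.29e-04). Birc5, a subunit of the chromosomal passenger complex, fell by 1.25 and 1.37, and Ccna2, a cyclin of S phase and mitosis, by 1.00 and 1.07. Kif23, a kinesin of the central spindle, fell by 1.06 and 1.25.

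**Figure D1:**
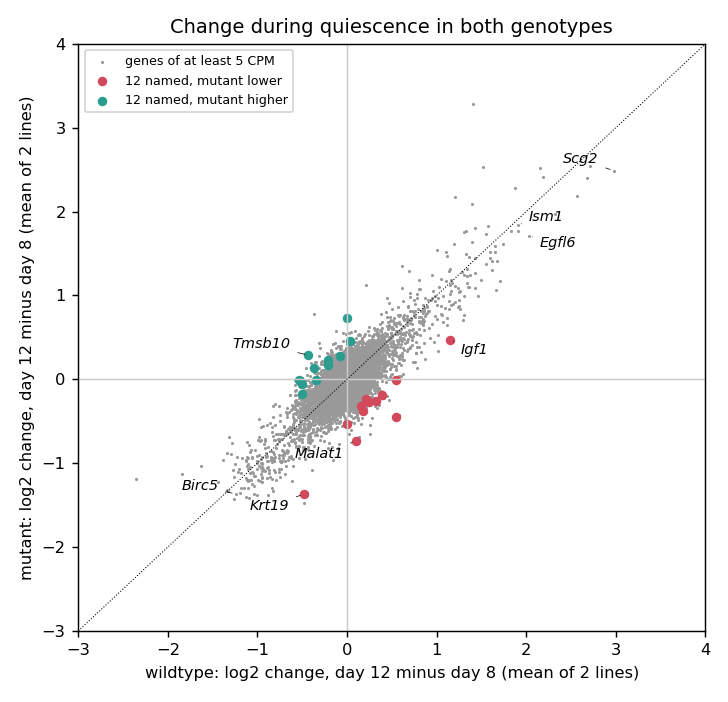
Log2 change from day 8 to day 12 in the wildtype (horizontal axis) against the mutant (vertical axis), each the mean of the per-line changes. Genes of at least 5 CPM are in grey, the genes named for a difference are in colour, and a dotted line marks equality. The grey cloud lies along the line, with a correlation of 0.805 over 10475 genes. The named gene furthest from it is Zxdb, with a mutant minus wildtype difference in mean change of −1.005 log2 units.

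Lines of the same genotype were not always the most alike. Across the 10475 genes, the Pearson correlation of the per-line changes was 0.688 between the wildtype lines and 0.474 between the mutant lines. Between a wildtype and a mutant line it ranged from 0.598 to 0.683. These are correlations across genes, which are not independent replicates, and they share libraries. The median absolute difference of a gene's change was 0.116 between the wildtype lines, 0.207 between the mutant lines and 0.109 between the genotype means. The last value is between means of 2 lines, which averaging alone makes smaller than a difference between single lines.

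Igf1 (NCBI gene 16000), the gene given as the marker of the comparison, had the smallest unadjusted p of all tested genes in this fit. Its rank was 2 with DESeq2, 7 without the line term and 44 with a linear trend over days, and from 3 to 47 when 1 line was left out. In wildtype line 1 its level was 126.6 CPM at day 8, 249.9 at day 10 and 281.9 at day 12. In wildtype line 2 it was 125.6, 235.9 and 278 CPM on the same days. In mutant line 1 it was 154.8, 156.7 and 232.7 CPM, and in mutant line 2 it was 205.6, 220.5 and 262.1 CPM. The mutant lines were thus above the wildtype lines at day 8 and below them at days 10 and 12, with no overlap on any of the 3 days.

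In the wildtype Igf1 went from 126 ± 0.738 CPM (SD, n = 2) to 280 ± 2.77 CPM and rose 2.22-fold, a log2 change of 1.15 (edgeR adjusted p = 7.04e-04). In the mutant it went from 180 ± 35.9 CPM (SD, n = 2) to 247 ± 20.8 CPM, a log2 change of 0.47 (edgeR adjusted p = 0.0928, above the threshold). The per-line changes were 1.16 and 1.15 in the wildtype lines against 0.59 and 0.35 in the mutant lines. The difference was −0.68 ± 0.18 (SE), with a 95% interval from −1.07 to −0.29 before adjustment (edgeR, unadjusted p = 0.0022, adjusted p = 1). In an exact two-sided permutation test of the per-line changes, Igf1 gave p = 0.333, which is the smallest value that 2 lines against 2 can give.

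Without 1 line at a time the Igf1 difference ranged from −0.82 to −0.55. The wildtype rise of Igf1 kept its size without either wildtype line, between 1.15 and 1.16 over the fits with a line left out, but did not pass without wildtype line 1 or line 2, where the highest edgeR adjusted p was 0.225. Thinning all libraries to the total of the shallowest one removed the difference in depth noted above. The genotype difference in Igf1 was then −0.66. Thinning evens out totals only, and at the counts of Igf1 it could hardly move this value. Whether the shallower mutant day 12 libraries differed in other ways was not tested. The mutant minus wildtype gap in Igf1 was 0.50 on the log2 scale at day 8, −0.39 at day 10 and −0.18 at day 12. More of the difference in change therefore came from the higher day 8 level in the mutant than from the lower day 12 level. In bulk RNA, fewer cells of a type and less RNA per cell cannot be told apart.

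**Figure D2:**
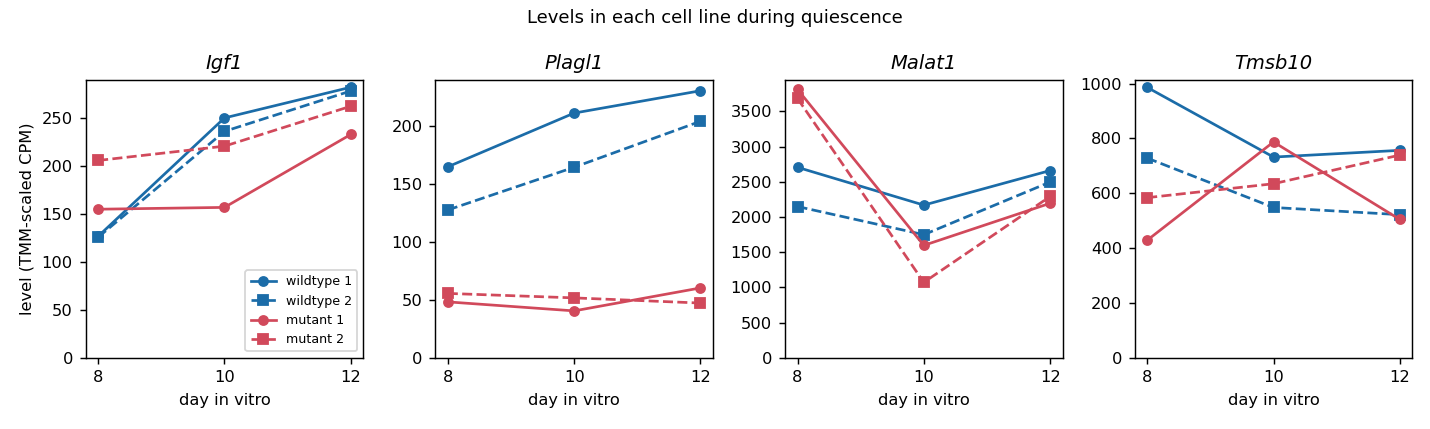
Levels in CPM of Igf1, Plagl1, Malat1 and Tmsb10 at days 8, 10 and 12, 1 line of points per cell line, wildtype and mutant in separate colours. For Igf1 the mutant lines start above the wildtype lines (155 and 206 against 126 and 127 CPM) and end below them.

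The other ligand, Igf2, is an imprinted growth factor and was far more abundant by count. Its level went from 3024 CPM at day 8 to 3784 at day 12 in wildtype line 1 and from 3468 to 4419 in wildtype line 2. It went from 2916 to 3379 CPM in mutant line 1 and from 3693 to 3502 in mutant line 2. The changes did not overlap between genotypes, and neither genotype passed the test. The difference of −0.26 had a 95% interval from −0.71 to 0.19, so it cannot be told from 0 or from a difference as large as that of Igf1.

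The IGF axis list holds 22 tested genes for ligands, receptors, binding proteins, proteases and their inhibitors, adaptors and mRNA-binding proteins. In the wildtype 5 of them rose and in the mutant 4 rose (beside 0.959% and 0.9% of all genes), and none fell in either. The median difference over the list was 0.05, beside 0.00 over all tested genes, and 12 members lay above 0 and 10 below. Per-line changes did not overlap between genotypes for 2 members with the higher change in the mutant (9.09%, beside 14.2% of all genes) and for 4 with the lower one (18.2%, beside 16.9% of all genes). These shares of non-overlapping changes lie near those of all genes.

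The receptor Igf1r, which binds both ligands, went from 179.9 to 160 CPM and from 168.4 to 143.9 CPM in the wildtype lines. In the mutant lines it went from 176.9 to 178.7 CPM and from 160.3 to 149.6 CPM, and its difference was 0.16 with an interval from −0.23 to 0.54. The difference in Igf2r, the receptor that clears Igf2, was 0.11 (interval −0.25 to 0.48), and that in the insulin receptor Insr was 0.03 (interval −0.32 to 0.37). Among the adaptors, the difference was −0.08 for Irs1 and −0.26 for Irs2. No receptor or adaptor passed the test in either genotype.

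The binding proteins made up most of the axis that rose. Igfbp2 went from 171.4 to 305.1 CPM and from 110.5 to 231.3 CPM in the wildtype lines, a rise of 0.95 (edgeR adjusted p = 0.00276). In the mutant lines it went from 127.5 to 358.6 CPM and from 156.6 to 313 CPM, a rise of 1.24 (edgeR adjusted p = 5.42e-04). Igfbp4, the main substrate of Pappa, rose by 0.80 in the wildtype (edgeR adjusted p = 0.006) and by 0.75 in the mutant (adjusted p = 0.009). Igfbp5, a matrix-bound member, rose by 0.89 in the wildtype (edgeR adjusted p = 0.0181) and by 0.97 in the mutant (adjusted p = 0.0103).

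Igfbp3, the principal carrier of IGFs in serum, rose by 1.17 in the wildtype (edgeR adjusted p = 0.0163), and its change of 0.91 in the mutant did not pass (adjusted p = 0.0601). The difference of −0.26 between these changes had an interval from −0.95 to 0.43. The protease Htra1 rose by 0.72 in the mutant (edgeR adjusted p = 0.0278), and its change of 0.63 in the wildtype did not pass (adjusted p = 0.0583). Its difference was 0.09. For both genes the call in a single genotype is not a difference between them.

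Igfbp7, a related matrix protein that binds IGFs weakly, had the highest difference of the 20 members with at least 5 CPM in a group. It went from 164.8 to 125.3 CPM and from 153.3 to 100.5 CPM in the wildtype lines, against 131.7 to 133.2 CPM and 129.1 to 117.5 CPM in the mutant lines. The difference was 0.44 ± 0.17 (SE; edgeR, unadjusted p = 0.0218, adjusted p = 1). The stanniocalcins Stc1 and Stc2, inhibitors of Pappa, were low, between 3.20 and 9.47 CPM at days 8 and 12. Their differences were −0.46 and −0.41, and neither difference passed the test. Without wildtype line 1 they were −0.80 and −0.14, and without wildtype line 2 they were −0.13 and −0.72. The other members had overlapping per-line changes. The differences were 0.11 for the binding protein Igfbp6, 0.08 for Pappa and −0.12, 0.08 and 0.13 for the mRNA-binding proteins Igf2bp1, Igf2bp2 and Igf2bp3. Igfals and Pappa2 were too low to be described.

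**Figure D3:**
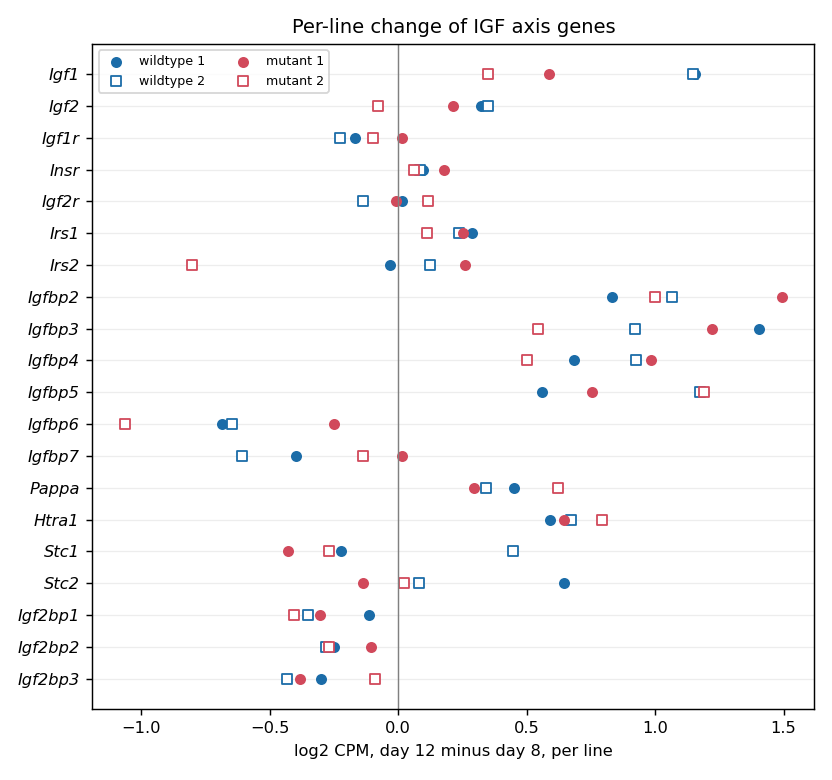
Log2 change from day 8 to day 12 in each line for the 20 IGF axis genes of at least 5 CPM in a group, wildtype and mutant lines in separate colours. The binding proteins Igfbp2 to Igfbp5 lie right of 0 in every line, and the Igf1 changes are 1.16 and 1.15 in the wildtype lines against 0.59 and 0.35 in the mutant lines.

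Plagl1 itself (NCBI gene 22634) was higher at day 12 than at day 8 in both wildtype lines and in 1 mutant line. It went from 165 CPM at day 8 through 211.4 to 230.7 CPM at day 12 in wildtype line 1, and from 127.7 through 164.6 to 204.3 CPM in wildtype line 2. In mutant line 1 it was 48.29, 40.52 and 60.34 CPM, and in mutant line 2 it was 55.61, 51.75 and 47.29 CPM. The mutant lines had changes of different sign and the wildtype lines of the same sign. The wildtype change of 0.58 stayed above the threshold (edgeR adjusted p = 0.0686), and the mutant change was 0.05 (adjusted p = 0.952). The difference was −0.53 ± 0.21 (SE), with an interval from −0.98 to −0.08 (edgeR, unadjusted p = 0.0247, adjusted p = 1). It was −0.83 without mutant line 1 and −0.25 without mutant line 2.

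The imprinted gene network, a set of imprinted growth genes and partners reported to be co-expressed with Plagl1, showed no common shift. Of 17 tested members, 9 had a difference above 0 and 8 below, and the median was 0.01. The per-line changes did not overlap for 0 members with the higher change in the mutant (0%, beside 14.2% of all genes). They did not overlap for 4 with the lower one (23.5%, beside 16.9% of all genes), namely Plagl1, Igf2, H19 and Grb10. H19, a long non-coding RNA expressed from the maternal allele next to Igf2, went from 3718 to 4277 CPM and from 5325 to 6005 CPM in the wildtype lines. It went from 4432 to 3752 CPM and from 5584 to 5022 CPM in the mutant lines. Its difference of −0.39 ± 0.28 (SE) did not pass the test. Grb10, an adaptor that restrains insulin and IGF receptor signalling and is named here after its values were seen, had a difference of −0.06. Among 32 other imprinted genes, 1 had the higher change in both mutant lines (3.12%, beside 14.2% of all genes). The lower one was found for 5 (15.6%, beside 16.9% of all genes). Their median difference was −0.06.

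Genes were then named among those with non-overlapping per-line changes and at least 5 CPM in a group, leaving out predicted genes. Of these, the 12 with the smallest unadjusted p and a lower change in the mutant include RNAs of the nucleus, the cytoskeleton and signalling. Malat1, an abundant nuclear long non-coding RNA, was at 2706 CPM at day 8 and 2660 CPM at day 12 in wildtype line 1, and at 2149 and 2497 CPM in wildtype line 2. It was at 3813 and 2195 CPM in mutant line 1 and at 3684 and 2292 CPM in mutant line 2. Malat1 fell by 0.73 in the mutant (edgeR adjusted p = 0.0286) and had a wildtype change of 0.10 (adjusted p = 0.929). The difference was −0.83 ± 0.22 (SE; edgeR, unadjusted p = 0.00245, adjusted p = 1). Both mutant lines were above both wildtype lines at day 8 and below them at day 12.

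Krt19, a keratin of simple epithelia, was at 8.863 and 8.47 CPM at days 8 and 12 in wildtype line 1 and at 11.69 and 6.238 CPM in wildtype line 2. It was at 9.847 and 3.826 CPM in mutant line 1 and at 9.427 and 3.583 CPM in mutant line 2. Krt19 fell by 1.38 in the mutant (edgeR adjusted p = 0.00249), and its wildtype change of −0.47 did not pass (adjusted p = 0.332). The difference of −0.90 became −0.48 without wildtype line 1 and −1.32 without wildtype line 2. Krt19 is 1 of 9 epithelial markers and made up most of their summed level, so that sum does not show whether the others moved. It was 13.51 to 14.92 CPM at day 8 and 10.6 to 11.3 CPM at day 12 in the wildtype, and 12.4 to 12.8 and 5.28 to 6.86 CPM in the mutant. Of the 6 tested members, 1 fell in the mutant and 0 in the wildtype (beside 1.17% and 1.01% of all genes). The genotype difference was above 0 for 2 of the 6 (33.3%, beside 50.4% of all genes) and below 0 for 4, Krt19 among them. The defining markers Epcam, Krt5 and Esrp1 were under 0.1 CPM. The part of epithelial cells in the result was not tested.

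Marcks, an actin-binding substrate of protein kinase C, was at 762.2 and 788.9 CPM at day 8 and at 981.1 and 1049 CPM at day 12 in the wildtype lines. In the mutant lines it was at 912.8 and 878.1 CPM at day 8 and at 875 and 709.9 CPM at day 12. The groups did not overlap on either day, and the order reversed between them. The difference was −0.56 (interval −0.97 to −0.16). Dynll2, a light chain of dynein and myosin V, had a difference of −0.58 (interval −0.96 to −0.20). It went from 199.4 to 262.5 CPM and from 269.5 to 320.4 CPM in the wildtype lines, and from 274.4 to 202.5 CPM and from 275.8 to 261.2 CPM in the mutant lines.

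Kitl, the stem cell factor that activates the receptor Kit, was at 19.74 and 19.6 CPM at days 8 and 12 in wildtype line 1 and at 21.25 and 21.46 CPM in wildtype line 2. It was at 25.71 and 17.05 CPM in mutant line 1 and at 30.18 and 21.58 CPM in mutant line 2. Its level was thus flat in the wildtype lines and lower at day 12 than at day 8 in both mutant lines, where the change of −0.54 came close to the threshold (edgeR adjusted p = 0.053). Its difference was −0.54 (interval −0.93 to −0.15). The differences of the remaining 6 genes of this group, all with an adjusted p of 1, were −1.03 for the zinc finger gene Zxdb, which was under 9 CPM in these libraries, −0.56 for the N-terminal acetyltransferase Naa30 and −0.56 for Hdgfrp3. They were −0.46 for Btbd10, −0.44 for the ubiquitin ligase gene Rnf11 and −0.52 for Traf3ip1, a component of intraflagellar transport.

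The 12 genes chosen in the same way with a higher change in the mutant were led by Tmsb10, which encodes the actin monomer-binding thymosin beta 10. It went from 986.4 to 756.7 CPM and from 728.4 to 522.1 CPM in the wildtype lines. It went from 428.7 to 504.6 CPM and from 584.1 to 739.5 CPM in the mutant lines. The day 8 levels of the mutant lines were both below those of the wildtype lines, and the day 12 levels overlapped. The difference was 0.73 ± 0.26 (SE; edgeR, unadjusted p = 0.0146, adjusted p = 1).

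Mt1, a metallothionein that binds zinc and copper, was the only one of these 12 genes called in a genotype. It fell by 0.50 in the wildtype (edgeR adjusted p = 0.0182), from 217.1 to 151.8 CPM in line 1 and from 195.9 to 140.5 CPM in line 2. In the mutant its change of −0.17 did not pass (adjusted p = 0.576), with levels from 161.2 to 140.6 CPM and from 162.7 to 147.5 CPM. At day 12 all 4 libraries lay between 140.5 and 151.8 CPM, so the difference of 0.33 lay in the day 8 levels.

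Eif1, a factor of start codon selection in translation, had a difference of 0.38. Tomm7, a subunit of the mitochondrial import pore, had one of 0.45. Cux1, a homeodomain transcription factor, went from 53.3 to 43.48 CPM and from 55.79 to 42.4 CPM in the wildtype lines and stayed between 47.71 and 49.43 CPM in the mutant lines, a difference of 0.34. Etv4, an ETS transcription factor induced by growth factor signalling, had a difference of 0.53 at levels from 6.22 to 10.8 CPM. The others were Praf2 (0.50), Igfbp7 (0.44, above), Scrn1 (0.43), Nmral1 (0.52), Lyrm1 (0.73, under 8 CPM) and Ubl7 (0.35).

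**Figure D4:**
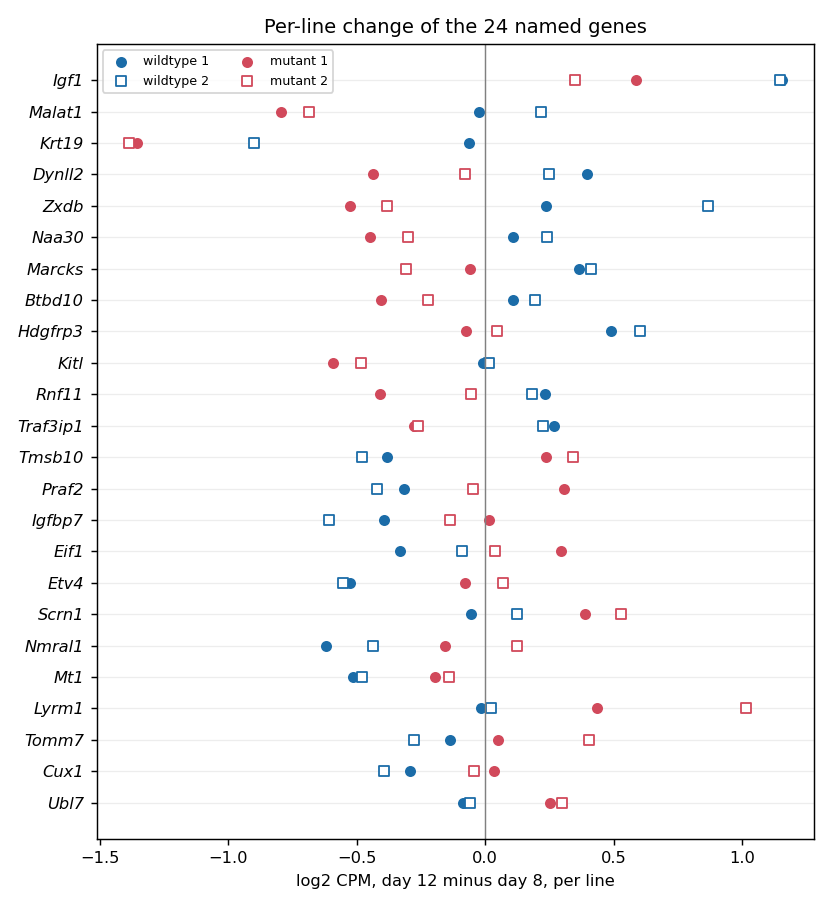
Log2 change from day 8 to day 12 in each of the 4 lines for the 24 genes named in the 2 directions. They have the smallest unadjusted p among genes with at least 5 CPM in a group and non-overlapping changes, predicted genes left out. By the rule that chose them, the wildtype and mutant points of a gene do not overlap, and 0 of the 24 differences passed the adjusted test.

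For both groups of genes the lines already stood apart at day 8. Among the 12 with the lower change, both mutant lines were above both wildtype lines at day 8 for 11 (beside 17.2% of all tested genes), and below them at day 12 for 9 (beside 11.6%). Among the 12 with the higher change, both mutant lines were below both wildtype lines at day 8 for 8 (17.8% of all genes), and above them at day 12 for 5 (9.5%). The gap was larger at day 8 than at day 12 for 7 of the first 12 and 8 of the other 12. Days 8 and 12 are the values the rule used, so these counts are a description. Among all tested genes, 1186 had changes of one sign in both wildtype lines and of the other sign in both mutant lines (7.68%), and 4804 had non-overlapping changes in either direction (31.1%).

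The day 10 libraries did not enter the contrast. They come from the same lines and entered the fit whose p ranked these genes, so the counts below are a description too. The mutant mean was below the wildtype mean at day 10 for 10 of the 12 genes with the lower change, beside 47.5% of all genes, and the median gap was −0.13 on the log2 scale. It was above the wildtype mean for 11 of the 12 genes with the higher change, beside 52.4% of all genes, with a median gap of 0.21. Both mutant lines were below both wildtype lines at day 10 for 4 of the first 12 (17.5% of all genes) and above them for 7 of the other 12 (22.7%).

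The named genes of the groups also differed in median transcript length, although the ranges overlapped. They were 1576 to 7052 bases with the lower change and 690 to 12862 bases with the higher one. The longest annotated transcript had a median of 4061 bases for 11 of the 12 genes with the lower change and 1382.5 bases for the 12 with the higher change, beside 3609 bases over 9563 genes. In each line the change itself was weakly related to length across those genes, with Spearman correlations of 0.194 and 0.142 in the wildtype lines and 0.075 and 0.119 in the mutant lines. The difference between genotypes correlated with length at −0.052. Its median was 0.087 for genes of up to 1000 bases and between −0.013 and 0.02 in the classes of longer genes. The part of transcript length in the named differences was not tested.

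Ribosomal protein genes, which are short, lay almost all on the same side. Of 28 tested, 27 had a difference above 0 (96.4%, beside 50.4% of all genes), with a median of 0.09. None passed the test in either genotype. The median change was −0.20 and −0.21 in the wildtype lines, −0.25 in mutant line 1 and 0.09 in mutant line 2. Without mutant line 2 the median difference was −0.04, so the direction rests on that line. Rpl13 had the smallest unadjusted p of the list, with a difference of 0.39 ± 0.19 (SE), and Rpl32 had one of 0.37.

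Of 24 proteoglycan genes, 6 rose in the wildtype and 5 in the mutant (beside 0.959% and 0.9% of all genes), and none fell. The median change was 0.52 in the wildtype and 0.34 in the mutant. The per-line changes did not overlap for 9 members with the lower change in the mutant (37.5%, beside 16.9% of all genes) and for 3 with the higher one (12.5%, beside 14.2%). The median difference over the list was −0.05. Lum, which encodes the collagen-binding proteoglycan lumican, went from 181.8 to 408.6 CPM and from 280.8 to 712.4 CPM in the wildtype lines, a rise of 1.26 (edgeR adjusted p = 6.29e-04). Its level went from 342 to 568.1 CPM and from 390.3 to 788.1 CPM in the mutant lines, a rise of 0.87 (adjusted p = 0.00249). The difference of −0.38 had an interval from −0.77 to 0.00.

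Aspn, which encodes the related proteoglycan asporin, went from 272.2 to 467.5 CPM and from 366.6 to 630.4 CPM in the wildtype lines. In the mutant lines it went from 399.7 to 452.4 CPM and from 599.3 to 634.2 CPM. Its changes of 0.78 and 0.13 did not pass the test in either genotype, and the difference was −0.65 ± 0.28 (SE; edgeR, unadjusted p = 0.0343, adjusted p = 1). As for Igf1, both mutant lines were above both wildtype lines at day 8, and for Aspn the groups overlapped at day 12. Ecm2, another member of the leucine-rich family, had a difference of −0.51 at levels under 10 CPM.

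Matrix glycoprotein genes lay the other way by count. Both lists were chosen with earlier results of these data known, so their shares are a description. The glycoprotein list also includes Igfbp7, named above for its higher change. Of 29 tested, 4 rose in each genotype (beside 0.959% and 0.9% of all genes in wildtype and mutant) and none fell. The higher change was in both mutant lines for 9 (31%, beside 14.2% of all genes), and the lower one for 3 (10.3%, beside 16.9%). The median difference was 0.08, and −0.04 without mutant line 1. Comp, a cartilage matrix protein of the thrombospondin family, went from 19.83 to 40.05 CPM and from 40.4 to 123.3 CPM in the wildtype lines, a rise of 1.32 (edgeR adjusted p = 0.00193). It went from 28.55 to 104.8 CPM and from 66.37 to 207.1 CPM in the mutant lines, a rise of 1.77 (adjusted p = 4.29e-04). The difference of 0.45 had an interval from −0.09 to 0.98, and was 0.16 without wildtype line 1 and 0.75 without wildtype line 2.

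Of 11 fibrillar collagen genes, 1 rose in the wildtype and 2 in the mutant (beside 0.959% and 0.9% of all genes). None had non-overlapping changes, beside 31.1% of all genes in either direction, and the median difference was 0.07. Of 20 other collagen genes, 5 rose in the wildtype and 3 in the mutant. Col10a1, a collagen of hypertrophic cartilage, rose by 0.83 in the wildtype (edgeR adjusted p = 0.0125), and its change of 0.33 in the mutant did not pass (adjusted p = 0.422). Its difference was −0.49 ± 0.22 (SE), −0.88 without mutant line 1 and −0.13 without mutant line 2. Col14a1, a collagen that associates with fibrils, rose by 1.26 in the wildtype (edgeR adjusted p = 0.00453) and by 0.84 in the mutant (adjusted p = 0.0462).

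Of 25 G2/M genes, 21 fell in the wildtype and 24 in the mutant (beside 1.01% and 1.17% of all genes). Their median changes were −1.005 and −1.07. Of 25 S phase genes, 9 fell in the wildtype and 14 in the mutant, with medians of −0.55 and −0.57. In each list the difference was below 0 for 18 of 25 genes, with a median of −0.10. Without wildtype line 1 the G2/M median was 0.01 and without wildtype line 2 it was −0.17, so its direction rests on wildtype line 1. The per-line changes did not overlap for 8 S phase genes with the lower change in the mutant (32%, beside 16.9% of all genes) and for 3 G2/M genes (12%). Rrm1, the large subunit of ribonucleotide reductase, fell by 0.59 in the wildtype (edgeR adjusted p = 0.00674) and 0.76 in the mutant (adjusted p = 0.00168), and the replication helicase subunit Mcm7 by 0.44 and 0.61 (adjusted p = 0.0481 and 0.00747).

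Ccne2, a cyclin of the G1 to S transition, fell by 1.04 in the mutant (edgeR adjusted p = 0.019), and its change of −0.69 in the wildtype did not pass (adjusted p = 0.135). The difference was −0.35 (interval −0.97 to 0.28). Among the G2/M genes, Mad2l1 of the spindle checkpoint had a difference of −0.29, whereas the cyclin Ccnb2 and the kinase Aurka had differences of 0.30 and 0.23, the latter 0.01 without mutant line 2 and 0.43 without mutant line 1. Each of the 3 genes fell in both genotypes. Of 20 growth arrest genes, 1 rose in each genotype (beside 0.959% and 0.9% of all genes in wildtype and mutant) and none fell. Ccng2, Foxo4 and the kinase inhibitor Cdkn1b had differences of −0.32, −0.33 and −0.31 that did not pass.

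**Figure D5:**
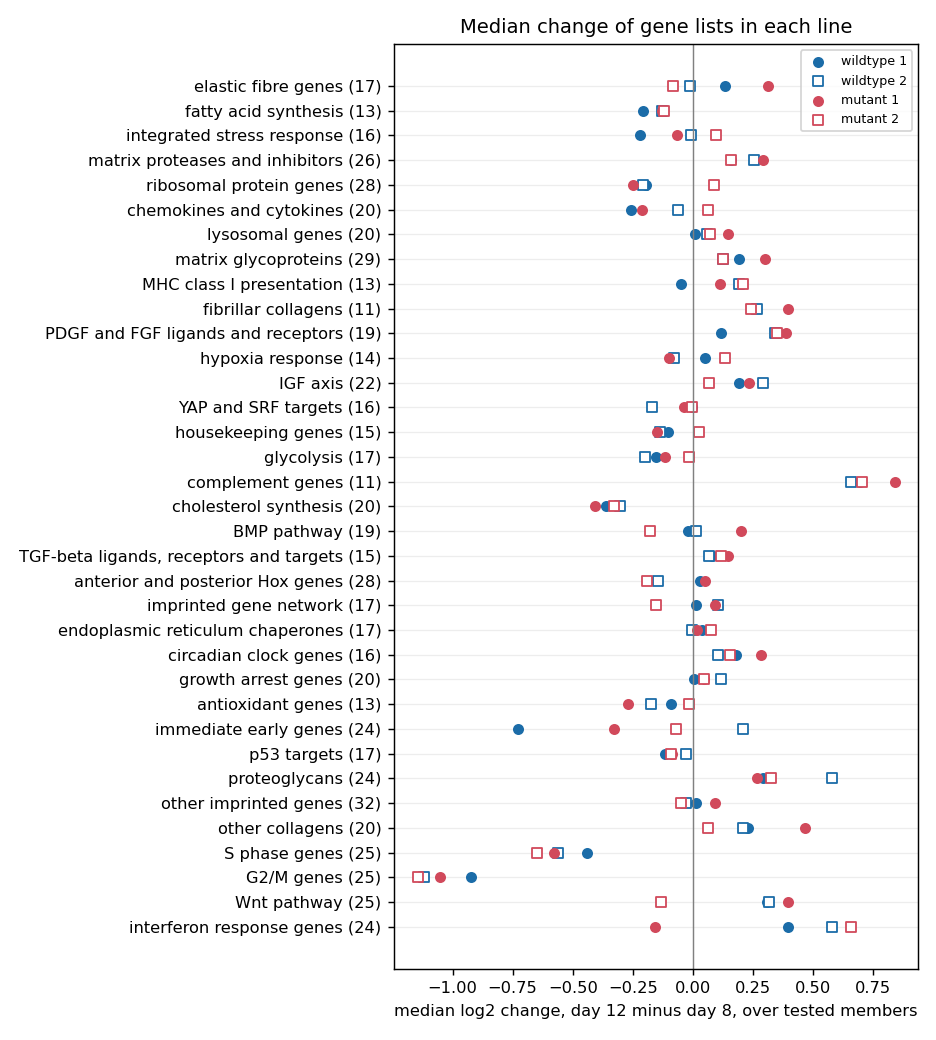
Median log2 change from day 8 to day 12 in each line for the 35 pathway lists, wildtype and mutant lines in separate colours. The cell cycle lists lie left of 0 in all 4 lines. For many lists the mutant lines lie on opposite sides of 0, among them ribosomal protein, interferon response, Wnt pathway, BMP pathway and elastic fibre genes.

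Over the 35 pathway lists the median difference ranged from −0.18 to 0.11, and it was within 0.1 of 0 for 30. The lowest was that of interferon response genes, of which 0 of 24 passed the test in either genotype. Their median change was 0.40 and 0.58 in the wildtype lines, −0.16 in mutant line 1 and 0.66 in mutant line 2. Without mutant line 1 the median difference was 0.35 and without mutant line 2 it was −0.55. The ubiquitin-like protein gene Isg15 was at 23.27 and 45.45 CPM at days 8 and 12 in wildtype line 1 and at 17.1 and 29.48 CPM in wildtype line 2. It was at 38.34 and 25.53 CPM in mutant line 1 and at 21.19 and 44.72 CPM in mutant line 2. The tether gene Bst2 had a difference of −0.44, and that of Oasl2 was −0.76, and neither passed. Without mutant line 1 they were −0.20 and −0.32, and without mutant line 2 they were −0.65 and −1.17.

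Wnt pathway genes had a median difference of −0.17 over 25. Of these, 2 rose in the wildtype and 3 in the mutant (beside 0.959% and 0.9% of all genes). The median difference was −0.33 without mutant line 1 and 0.02 without mutant line 2. Frzb, a secreted Wnt antagonist, rose by 1.38 in the mutant (edgeR adjusted p = 0.0356), and its change of 0.62 in the wildtype did not pass (adjusted p = 0.52). The difference of 0.76 did not pass, and was 0.33 without mutant line 2 and 1.14 without mutant line 1. Its level reached 19.35 CPM at day 12 in mutant line 2 and between 6.035 and 9.306 CPM in the other lines. Complement genes, secreted components of innate immunity, rose alike by count, 5 of 11 in each genotype (beside 0.959% and 0.9% of all genes). Their median changes were 0.69 in the wildtype and 0.78 in the mutant. Cholesterol synthesis genes had median changes of −0.35 and −0.28, and none of 20 passed in either genotype.

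Markers of other cell types were at different levels between lines. The summed level of 15 macrophage markers was 34.2 to 136 CPM at day 8 and 93.2 to 300.2 CPM at day 12 in the wildtype. In the mutant it was 14.9 to 216 CPM at day 8 and 40.2 to 550.6 CPM at day 12. The 13 cartilage markers summed to between 1559 and 2796 CPM at day 8 and between 1826 and 4665 CPM at day 12 over the 4 lines. The 10 bone-forming cell markers, which include Col10a1, had a median difference of −0.44, and 4 had the lower change in both mutant lines (40%, beside 16.9% of all genes). Their sums were 2311 to 2779 CPM at day 8 and 2663 to 2965 CPM at day 12 in the wildtype, and 2368 to 3244 and 2319 to 4946 CPM in the mutant. Tie1 of endothelial cells, Cidec and Lep of adipocytes and Myf5 and Myf6 of skeletal muscle had no count in these libraries. Other members of these lists had counts. The 12 adipocyte markers summed to 43.1 to 55.6 CPM at day 8 and 73.6 to 94.8 CPM at day 12 in the wildtype. In the mutant they summed to 50.1 to 50.3 and 73.3 to 88.9 CPM. Endothelial and skeletal muscle markers summed to at most 10.2 and 13.9 CPM. The part of these cells in the differences was not tested.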

How the data were processed

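Whole-gene read counts were deposited by the authors for 16 mouse fibroblast libraries (total RNA, stranded kit, per the labels). Per the submitters' processing notes, HTSeq 0.6.1p1, TopHat2 2.1.1, Bowtie2 2.2.9 and bcl2fastq 2.18 were used with mm9. Annotation and strand setting are not given in the sources used here, and counts of overlapping genes are uncertain. The table held 0 columns of other samples and 23100 genes.

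Counts were fitted in R 4.3.3 with edgeR 4.0.16 (TMM scaling, filterByExpr, robust quasi-likelihood) over all 16 libraries, with terms for line and for day within genotype (6 residual degrees of freedom). Filtering left 15439 genes, over which p-values were adjusted by Benjamini and Hochberg at 0.05. The difference is the mutant change minus the wildtype change. CPM are TMM-scaled and per-line changes used a prior count of 2. DESeq2 1.42.0 and limma 3.58.1 were alternatives. The fit was run on simulated data without line effects, to check the size and sign of planted changes. How often it calls a real difference between lines such as these was not tested. Line counts differed far beyond sampling noise.

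Named were Plagl1, Igf1, the 12 genes in each direction with the smallest unadjusted p, non-overlapping per-line changes and at least 5 CPM in a group, 6 per direction and genotype for the changes, the IGF axis, and up to 3 genes per list. Predicted genes, known by their symbols, were left out of the 12 and the 6 genes per direction. Members and lists were chosen with earlier results of these data known, so the shares within lists are a description. A line pairs its own days by design. Across genotypes, same-numbered lines did not deviate together (correlation 0.035 over 10475 genes). Transcript lengths came from GENCODE M21, and no coordinates are given because its build is not the authors'.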

Additional observations from a re-analysis of the deposited data

How the results depend on the processing

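The genotype difference gave 0 called genes under each of 18 alternatives, and the Igf1 difference stayed between −0.82 and −0.55 with an adjusted p of at least 0.61. The counts within a genotype depended more on the fit. Wildtype and mutant counts were 540 and 583 with DESeq2, 673 and 810 with limma on per-line differences, 716 and 807 with the 8 libraries of days 8 and 12 alone, and 614 and 685 with the 12 libraries of days 8, 10 and 12. Without the replicate block that the line term forms, they were 126 and 168, and with a replicate block across genotypes 714 and 820. Leaving out 1 line gave 0 to 598 wildtype and 151 to 283 mutant calls. Calls that rose were 48.7% and 43.6% of the wildtype and mutant lists, 60.6% and 58.8% with limma-voom, 59.8% and 56.5% with the newer quasi-likelihood method of edgeR, and 21.4% and 19.6% without the line term. The last method and the thinning were chosen after seeing the data.

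Directions changed when a line was left out. Ranges were −0.641 to 0.061 for Igfbp3, −0.007 to 0.257 for Igf2bp3, −0.87 to 0.23 for Irs2, −0.02 to 0.17 for Igf2bp2, −0.168 to 0.001 for Irs1 and −0.21 to 0.41 for Igfbp5. They were −0.086 to 0.214 for Pappa, −0.32 to 0.19 for Igfbp4, −0.42 to 0.43 for Igfbp6, −0.045 to 0.096 for Insr, −1.46 to 0.18 for Isg15 and −0.89 to 2.35 for Acan. The mutant change of Plagl1 ranged from −0.24 to 0.34. The causes were not tested.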

Other observations

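Some genes differed more between lines of the same genotype than between genotypes. Acan, which encodes the cartilage proteoglycan aggrecan, went from 9.219 CPM at day 8 to 62.78 CPM at day 12 in mutant line 2. It went from 2.337 to 1.622 CPM in mutant line 1, from 3.065 to 1.739 CPM in wildtype line 1 and from 3.79 to 8.971 CPM in wildtype line 2. Acan was thus higher at day 12 than at day 8 in both lines numbered 2 and lower in both lines numbered 1. Its genotype difference of 1.20 ± 1.30 (SE) was −0.89 without mutant line 2 and 2.35 without wildtype line 2. Lyz2, the lysozyme of myeloid cells, rose in both genotypes, by 1.33 in the wildtype (edgeR adjusted p = 0.0308) and by 1.71 in the mutant (adjusted p = 0.00862). Its level at day 12 was 38.07 and 138.1 CPM in the wildtype lines and 238.6 and 19.83 CPM in the mutant lines, so lines of the same genotype stood further apart than the days.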
